A study of Mus musculus with 9 samples.

Results

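The miR-130/miR-301 family comprises the mature miRNAs miR-130a-3p, miR-130b-3p, miR-301a-3p and miR-301b-3p, and its 4 members were followed across 9 small RNA-seq libraries made with 3 library preparation protocols. Each member was found at the 5′ end in the deposited alignments whose reads per 1000000 mapped reads (RPMM) equal the values listed under its name in the study's supplementary tables. All 4 were placed, among 414 entries (mature miRNAs and forms of them with a shifted 5′ end) placed in MIN6 or liver.

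MicroRNAs are short RNAs cut from hairpin precursors that guide Argonaute proteins to messenger RNAs, mainly by pairing of the seed near their 5′ end. Members of a family share the seed and so share most of their predicted targets, while the 3′ part of the sequence can differ. Members of the miR-130/miR-301 family are known for the repression of PPARγ in fat cells and for roles in blood vessels.

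MIN6, a cell line from a mouse insulinoma that keeps features of insulin-secreting beta cells, was grown in DMEM with 25 mM glucose and 10% heat-inactivated fetal bovine serum in every MIN6 sample. Its libraries were 3 made with Illumina TruSeq (TS-GAIIx) and 3 with the older Illumina v1.5 kit (v1.5-GAIIx), all sequenced on the GAIIx, and 1 made with Bioo Scientific NEXTflex V2 and sequenced on the HiSeq (NF-HiSeq). Liver RNA came from 1 female C57BL/6J mouse, bought at 9 weeks of age, given 10 days to acclimate, injected with saline into the tail vein and fasted overnight before collection 7 days later. From this RNA 1 TruSeq library (TS-HiSeq-ML) and 1 NEXTflex library (NF-HiSeq-ML) were sequenced on the HiSeq. No gene was altered and no drug was given in any group. The comparisons ask how far the preparation protocol sets the measured level of a miRNA. The study describes the replicates of a protocol as biological, while the labels do not say which cultures they came from, so p-values here measure the spread between these libraries.

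Deposited counts summed to 6923460 to 13158853 per library on the GAIIx and to 14426009 to 25638871 on the HiSeq. The labels were checked with miR-375-3p, an abundant miRNA of beta cells, at 64950 to 186331 RPMM in the 7 MIN6 libraries and at 40.0 and 26.7 RPMM in liver. Hepatocyte miR-122-5p was at 0.150 to 128 RPMM in MIN6, with the highest value in NF-HiSeq. In liver it was at 17244 RPMM in TS-HiSeq-ML and at 532452 RPMM in NF-HiSeq-ML. Both NEXTflex libraries list few rare reads: 4.73% and 5.69% of their distinct exact alignments have a count of 1, against 21.2% to 36.3% in the other 7, so that minor read forms are not comparable between NEXTflex and the other protocols. NEXTflex was also the protocol whose reads were trimmed of degenerate adapter bases. NF-HiSeq differs from the GAIIx libraries in RNA sample, platform, sequencing centre and year as well. With the MIN6 libraries used here, these cannot be told apart from the protocol. The study also compared NF-HiSeq with a TruSeq HiSeq library of the same MIN6 RNA, which is not among the 9 libraries. RNA of MIN6 was isolated with a Norgen kit or TRIzol depending on the site, so that extraction may differ between them too, and that of liver with the Norgen kit.

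The mature sequences are shown because the members share the seed and differ in the bases after it. They are from RefSeq (GRCm38.p6), 5′ to 3′, with the seed (bases 2 to 8) in capitals, and 3 of the 4 members were matched in that table.
miR-130a-3p: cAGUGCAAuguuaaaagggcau
miR-130b-3p: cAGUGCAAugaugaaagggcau
miR-301a-3p: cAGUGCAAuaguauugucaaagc

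miR-130a-3p and miR-130b-3p are 22 nt long and identical at 20 of 22 positions, with U11A and A13G as the substitutions from miR-130a-3p to miR-130b-3p, counted from 1 at the 5′ end. They end in the same bases. miR-301a-3p has 23 nt, shares the first 9 bases with both and differs from them at 10 and 11 of the 22 compared positions. The seed stands at bases 2 to 8 of 7 of the 1679 mature miRNAs in the RefSeq table, the others being miR-130c, miR-721, miR-6341 and miR-6389.

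For miR-301b-3p the hairpin is given instead, next to that of its closest paralog, with the 7 bases of the seed in capitals.
Mir301 hairpin: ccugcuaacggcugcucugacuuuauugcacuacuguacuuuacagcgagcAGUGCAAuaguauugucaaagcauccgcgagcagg
Mir301b hairpin: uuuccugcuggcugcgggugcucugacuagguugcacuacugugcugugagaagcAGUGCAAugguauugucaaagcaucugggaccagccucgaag

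From the base before the seed onward, the stretches of both hairpins are identical at 25 of the first 26 positions. The single difference there is A10G from Mir301 to Mir301b. Reads placed on miR-301a-3p with a G at that position were 0 in all 9 libraries. Reads placed on miR-301b-3p with an A there made up at most 0.129% of its reads. Such reads match the other paralog at this base, so the alignment itself can keep both counts low. The counts therefore cannot show how many reads, if any, were placed on the wrong paralog.

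Mir130b and Mir301b are neighbours on the minus strand of GRCm38 chromosome 16, at chr16:17124061-17124142 and chr16:17124400-17124496. Both lie inside the protein-coding gene 2610318N02Rik without overlapping an exon of it. In the deposited alignments the 5′ ends of miR-130b-3p and miR-301b-3p are 350 nt apart, the same distance as between the starts of their sequences within these hairpins in GRCm38. Mir301, the hairpin of miR-301a-3p, is at chr11:87113004-87113089 on the plus strand, inside Ska2, which encodes a component of the spindle and kinetochore complex, again without overlap with an exon. Mir130a is at chr2:84741115-84741178 on the minus strand, where no annotated gene other than the miRNA gene itself overlaps it.

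In MIN6 cells, 3 members were lower with v1.5 than with TruSeq. In contrast, miR-301b-3p was higher in RPMM, a difference not kept under TMM or DESeq2 scaling. miR-130a-3p was at 3848, 3591 and 3284 RPMM in the TS-GAIIx libraries and at 1674, 1628 and 1621 RPMM in the v1.5-GAIIx libraries. miR-301a-3p was at 3008, 3280 and 2910 RPMM with TruSeq and at 1123, 1192 and 1217 RPMM with v1.5. For both, every v1.5 library was below every TruSeq library, by more than the spread within either group.

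miR-130b-3p was at 1547, 1603 and 1588 RPMM with TruSeq and at 848, 849 and 875 RPMM with v1.5, again without overlap. miR-301b-3p, its neighbour in the genome, was at 438, 452 and 391 RPMM with TruSeq and at 582, 592 and 626 RPMM with v1.5. Here the v1.5 libraries were the higher ones in RPMM, without overlap, but not under TMM or DESeq2 scaling. Over all 352 entries tested, the RPMM of the groups did not overlap for 92.0%.

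The log2 fold change of v1.5 over TruSeq was −1.12 (SE 0.0587, edgeR quasi-likelihood test, Benjamini-Hochberg adjusted p = 9.37e-09) for miR-130a-3p. For miR-130b-3p it was −0.88 (SE 0.0428, adjusted p = 4.98e-09), and for miR-301a-3p −1.38 (SE 0.0567, adjusted p = 1.18e-09). For miR-301b-3p it was 0.49 (SE 0.0635, adjusted p = 2.38e-05), but this direction depends on the scaling: with TMM factors the value was −0.060 (adjusted p = 0.366) and with DESeq2 size factors −0.13 (adjusted p = 0.0470). These factors moved the median log2 fold change of all 352 entries from 0.70 to 0.16 and 0.09. The other 3 members were lower in v1.5 under both scalings too, at −1.74, −1.5 and −2.0 with DESeq2 size factors for miR-130a-3p, miR-130b-3p and miR-301a-3p. From alignments without an edit alone, miR-130b-3p was at −0.24 (adjusted p = 0.00155) and miR-301b-3p at 0.79 (adjusted p = 1.50e-09). Alignments whose edit is a bare number, of unknown meaning, were counted as edited and held at most 0.00247% of a member's reads in any library.

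Of the 352 entries tested, 92.6% passed the threshold, 56.5% higher and 36.1% lower in v1.5. In the family 3 of 4 members were lower and 1 was higher, with a median log2 fold change of −1.0. The higher one was miR-301b-3p, a difference not kept under TMM or DESeq2 scaling. Among the tested entries, miR-130a-3p ranked 29 to 35 by level with TruSeq and 72 to 74 with v1.5, miR-301a-3p 36 and then 81 to 82, miR-130b-3p 60 to 61 and then 95 to 97, and miR-301b-3p 98 to 110 and then 112.

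**Figure D1:**
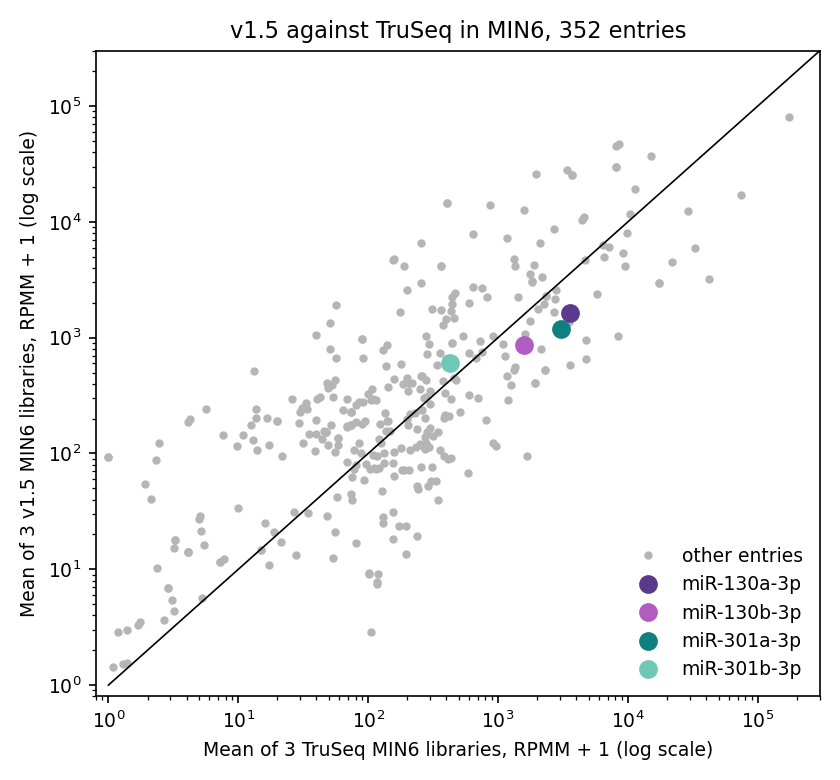
Mean RPMM + 1 of the 3 TS-GAIIx libraries (x axis, log scale) against that of the 3 v1.5-GAIIx libraries (y axis, log scale) for 352 entries, with the 4 family members coloured and the line of equality drawn. miR-130a-3p, miR-130b-3p and miR-301a-3p lie below the line and miR-301b-3p above it, the last with a difference not kept under TMM or DESeq2 scaling.

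Ratios between members within a library do not depend on scaling. miR-130a-3p exceeded miR-130b-3p by 2.49, 2.24 and 2.07 times in the TruSeq libraries and by 1.97, 1.92 and 1.85 times in the v1.5 libraries, a shift of −0.24 in the log2 ratio (SE 0.0816). The reference sequences of these members have the same 5′ and 3′ ends, while the 3′ ends of their reads differed, as given below. Counted from alignments without an edit, the shift of this pair was −0.82. miR-301a-3p exceeded miR-301b-3p by 6.86, 7.26 and 7.45 times with TruSeq and by 1.93, 2.02 and 1.94 times with v1.5, a shift of −1.87 (SE 0.0401) and the largest of the 6. The hairpin stretches of these paralogs differ at the 1 position given above.

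The clustered miRNAs miR-130b-3p and miR-301b-3p stood at ratios of 3.53, 3.55 and 4.07 with TruSeq and of 1.46, 1.43 and 1.4 with v1.5, a shift of −1.37 (SE 0.0691). miR-130a-3p over miR-301b-3p shifted by −1.61 (SE 0.0602), miR-130b-3p over miR-301a-3p by 0.50 (SE 0.0531; 1.11 from alignments without an edit), and miR-130a-3p over miR-301a-3p by 0.26 (SE 0.0845). In all 6 pairs the groups did not overlap, which also held for 93% of the 60726 pairs of tested entries. The exact two-sided permutation test gave p = 0.1 for each pair (adjusted p = 0.1 over the 6), the smallest value that 3 against 3 libraries allow.

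In composition, miR-130a-3p made up 41.3% ± 1.91 (SD, n = 3) of the summed RPMM of the family with TruSeq and 38.4% ± 1.13 (SD, n = 3) with v1.5. miR-301a-3p contributed 35.5% ± 1.37 with TruSeq and 27.5% ± 0.838 with v1.5, and miR-130b-3p 18.3% ± 1.01 and 20% ± 0.118. miR-301b-3p was the least abundant member with both, at 4.93% ± 0.141 and 14.0% ± 0.353. The order was the same in all 6 libraries, miR-130a-3p first, followed by miR-301a-3p, miR-130b-3p and miR-301b-3p. The first neighbours in this order were close with TruSeq, where the lowest library of miR-130a-3p (3284 RPMM) was just above the highest of miR-301a-3p (3280 RPMM). The summed level was 8646 ± 413 RPMM with TruSeq and 4276 ± 57.4 RPMM with v1.5 (SD, n = 3 each).

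**Figure D2:**
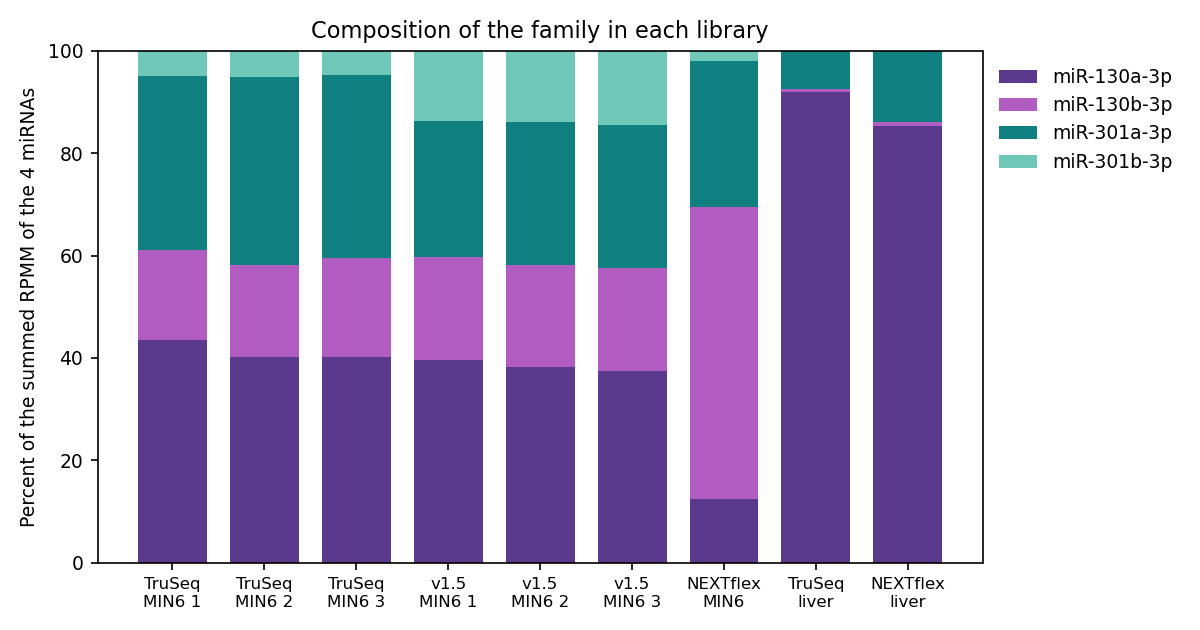
Percent of the summed RPMM of the 4 family members held by each member (y axis), as stacked bars for the 9 libraries (x axis). miR-130b-3p takes 57.1% in NEXTflex MIN6 and 17.5% to 20.2% in the other MIN6 libraries, and miR-130a-3p takes 91.9% and 85.4% in liver.

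The single NEXTflex library of MIN6 gave another order, miR-130b-3p first and miR-130a-3p only the third. In NF-HiSeq miR-130b-3p was at 1976 RPMM (50524 reads), miR-301a-3p at 985 RPMM, miR-130a-3p at 430 RPMM and miR-301b-3p at 71.7 RPMM (1833 reads). miR-130b-3p was above all 6 Illumina libraries, and miR-130a-3p, miR-301a-3p and miR-301b-3p were below all 6. The share of all tested entries that also lie outside these 6 was not counted, so this is not given as particular to the family. With 1 library there is no replicate check, so these differences carry no test. The exact Poisson 95% intervals, 1959 to 1994 RPMM for miR-130b-3p and 422 to 438 RPMM for miR-130a-3p, cover counting error only, since reads without molecular identifiers are not independent molecules.

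After 1 RPMM was added to each mean, miR-130a-3p was 8.30-fold lower in NF-HiSeq than in TS-GAIIx, miR-301b-3p 5.89-fold lower and miR-301a-3p 3.11-fold lower, while miR-130b-3p was 1.25-fold higher. Of the tested entries, 34.9% were more than 2-fold lower with NEXTflex and 37.5% more than 2-fold higher, and the median log2 ratio was 0.11. Relative to v1.5-GAIIx, miR-301b-3p was 8.27-fold lower and miR-130a-3p 3.81-fold lower. miR-130b-3p was 2.30-fold higher than in v1.5-GAIIx and miR-301a-3p 1.20-fold lower. In this comparison 46.6% of the entries were more than 2-fold lower, 26.7% more than 2-fold higher, and the median log2 ratio was −0.84. Both comparisons share the NEXTflex library.

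Within NF-HiSeq, miR-130b-3p exceeded miR-130a-3p by 4.60 times, the inverse of the order in the Illumina libraries, and exceeded its genomic neighbour miR-301b-3p by 27.6 times. For miR-130a-3p and miR-130b-3p the reference sequences differ only by the pair of internal substitutions given above. miR-301a-3p over miR-301b-3p was 13.7 in NF-HiSeq.

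**Figure D3:**
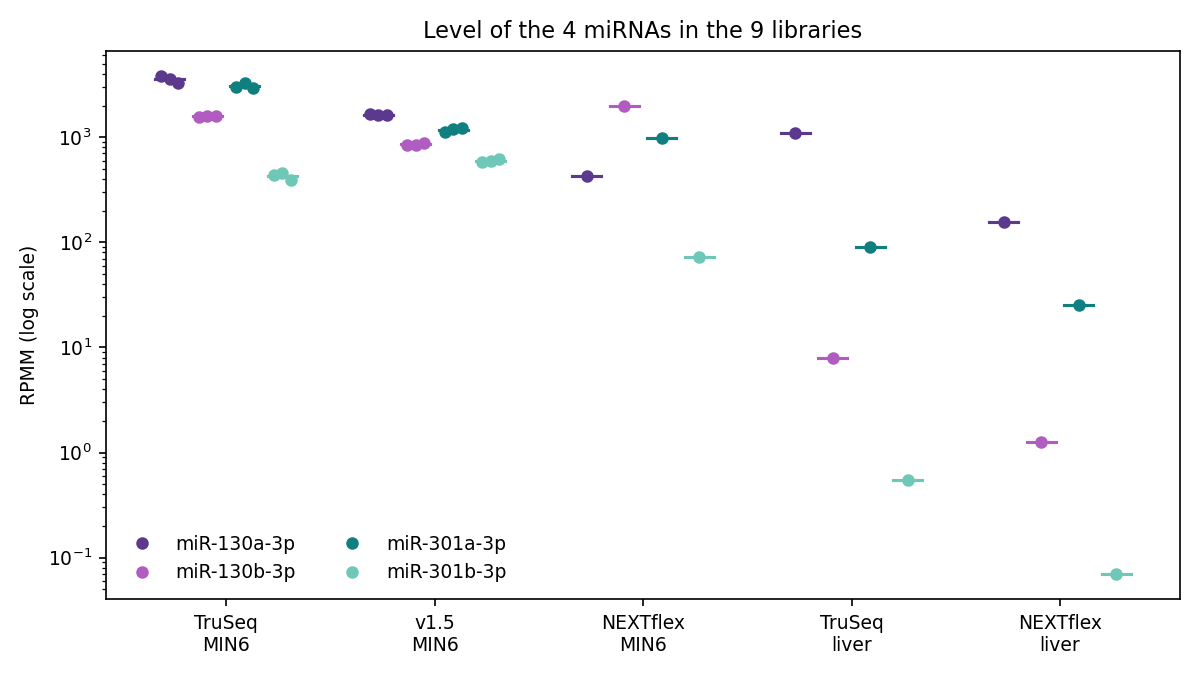
RPMM (y axis, log scale) of each family member in TruSeq, v1.5 and NEXTflex libraries of MIN6 and in TruSeq and NEXTflex libraries of liver (x axis), with a point per library and a bar at the group mean. In MIN6 the leading member is miR-130a-3p with TruSeq and v1.5 and miR-130b-3p with NEXTflex, and in liver miR-130a-3p leads with both protocols.

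In liver, miR-130a-3p was the predominant member with both protocols. It was at 1103 RPMM in TS-HiSeq-ML and at 155 RPMM in NF-HiSeq-ML, 91.9% and 85.4% of the family. miR-301a-3p was second, at 89.2 and 25.2 RPMM. The clustered members were low: miR-130b-3p was at 8.01 RPMM (132 reads) and 1.25 RPMM (18 reads), and miR-301b-3p at 0.546 RPMM (9 reads) and 0.0695 RPMM (1 read). All 4 were higher in the TruSeq library, and the order of the 4 was the same in both.

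These liver libraries were made from the same RNA and sequenced on the same platform. With 1 RPMM added, miR-130a-3p was 7.09-fold lower with NEXTflex, miR-130b-3p 4.0-fold lower and miR-301a-3p 3.45-fold lower. Without the added constant the TruSeq-to-NEXTflex ratio was 7.13 (95% interval from counting error 6.82 to 7.45), 6.4 (3.9 to 11.1) and 3.55 (3.16 to 3.99) for these 3 members. For miR-301b-3p it was 7.85 (1.09 to 344), from 9 reads and 1 read. Of the 178 entries at 100 RPMM or more in liver, 45.5% were more than 2-fold lower with NEXTflex and 22.5% more than 2-fold higher, with a median log2 ratio of −0.78. Only miR-130a-3p among the members reaches this level in liver. Another scaling used the reads of the placed MIN6 entries, without the entries listed for liver only. The MIN6 entries hold 43.9% of mapped reads in TS-HiSeq-ML and 81.6% in NF-HiSeq-ML. Scaled so, the log2 ratio moved from −2.83 to −3.72 for miR-130a-3p, from −2.0 to −2.93 for miR-130b-3p and from −1.79 to −2.68 for miR-301a-3p. From alignments without an edit it was −1.16 for miR-130b-3p and −2.39 for miR-301a-3p. These ratios compare the 2 libraries, not replicated conditions.

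All 4 members were higher in MIN6 than in liver, least so miR-130a-3p. Its log2 ratios, 1.70 with TruSeq and 1.47 with NEXTflex, were below the medians of 1.93 and 3.14 over the entries compared. How many of these entries were higher in MIN6 at all was not counted. With TruSeq, the MIN6 mean of miR-130a-3p was 3.24-fold that of liver, of miR-301a-3p 34.0-fold, of miR-130b-3p 175-fold and of miR-301b-3p 277-fold (1 RPMM added). Without the constant the last ratio was 782, with a counting interval of 405 to 1681, because liver held 9 reads. With NEXTflex the values were 2.77-fold for miR-130a-3p, 37.7-fold for miR-301a-3p and 878-fold for miR-130b-3p. For miR-301b-3p, with 1 read in liver, it was 68.0-fold. Without the constant the NEXTflex ratios were 1580 (999 to 2666) for miR-130b-3p and 1032 (185 to 40767) for miR-301b-3p.

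Among members at 100 RPMM or more in either source, 3 of 4 were more than 10-fold higher in MIN6 with TruSeq and 2 of 3 with NEXTflex. Of all entries at this level, 42.8% were so with TruSeq and 48.3% with NEXTflex, and the median log2 ratios were 1.93 and 3.14. Liver tissue is a mixture of cell types, and fewer cells of a type cannot be told apart from less RNA per cell. For TruSeq the MIN6 and liver libraries also differ in platform and may differ in RNA extraction and sequencing centre. These cannot be told apart from the source. Scaling to the placed MIN6 entries lowered the TruSeq log2 ratio of miR-130a-3p from 1.70 to 1.0, of miR-130b-3p from 7.46 to 6.85 and of miR-301a-3p from 5.09 to 4.40. The reversal of miR-130a-3p and miR-130b-3p between protocols in MIN6 had no counterpart in liver, where miR-130a-3p exceeded miR-130b-3p by 138 times with TruSeq and by 124 times with NEXTflex.

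The protocols also differed in which read forms of the members they recovered. Shares below are of the reads that start at the member's own 5′ end, and a mismatching last base is a read whose final base differs from the genome. For miR-130b-3p, 43.9%, 43.2% and 42.2% of the reads had such a base with TruSeq, against 11.8%, 11.7% and 11.7% with v1.5. The base was mostly a U, in 35.0% ± 0.283 and 8.11% ± 0.167 of the reads (SD, n = 3), and nearly all of it was the 22-nt sequence with 1 added U, at 33.4% ± 0.896 and 7.52% ± 0.181. The liver TruSeq library also had a U there in 34.5% of its 132 reads, and NF-HiSeq in 7.55%.

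miR-301b-3p had a mismatching last base in 32.1%, 31.1% and 27.8% of reads with TruSeq and in 14.8%, 15.7% and 14.5% with v1.5. For miR-130a-3p the shares were 13.3%, 14.0% and 14.5% against 11%, 10.9% and 11.1%. In these 3 members the TruSeq libraries were above the v1.5 libraries without overlap, as in 37.0% of the 349 entries compared (39.0% had the opposite order). In miR-301a-3p the groups overlapped, at 15.2% ± 1.04 and 14.2% ± 0.488 (exact permutation p = 0.3).

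The base itself differed between paralogs with nearly the same sequence. miR-130a-3p ended in a mismatching C in 5.29% ± 0.177 of reads with TruSeq and in 0.240% ± 0.0562 with v1.5, whereas in miR-130b-3p a C stood at 0.429% ± 0.0630 and 0.102% ± 0.0264. A U ended miR-130a-3p in 6.38% ± 0.317 with TruSeq and 8.90% ± 0.144 with v1.5, the opposite direction to miR-130b-3p. In NF-HiSeq miR-301b-3p had a mismatching A in 13.6% of reads, a base that held 0.830% ± 0.221 and 0.610% ± 0.0859 with TruSeq and v1.5. The median share of a mismatching last base over the entries was 5.98% to 6.71% in the 6 Illumina MIN6 libraries.

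**Figure D4:**
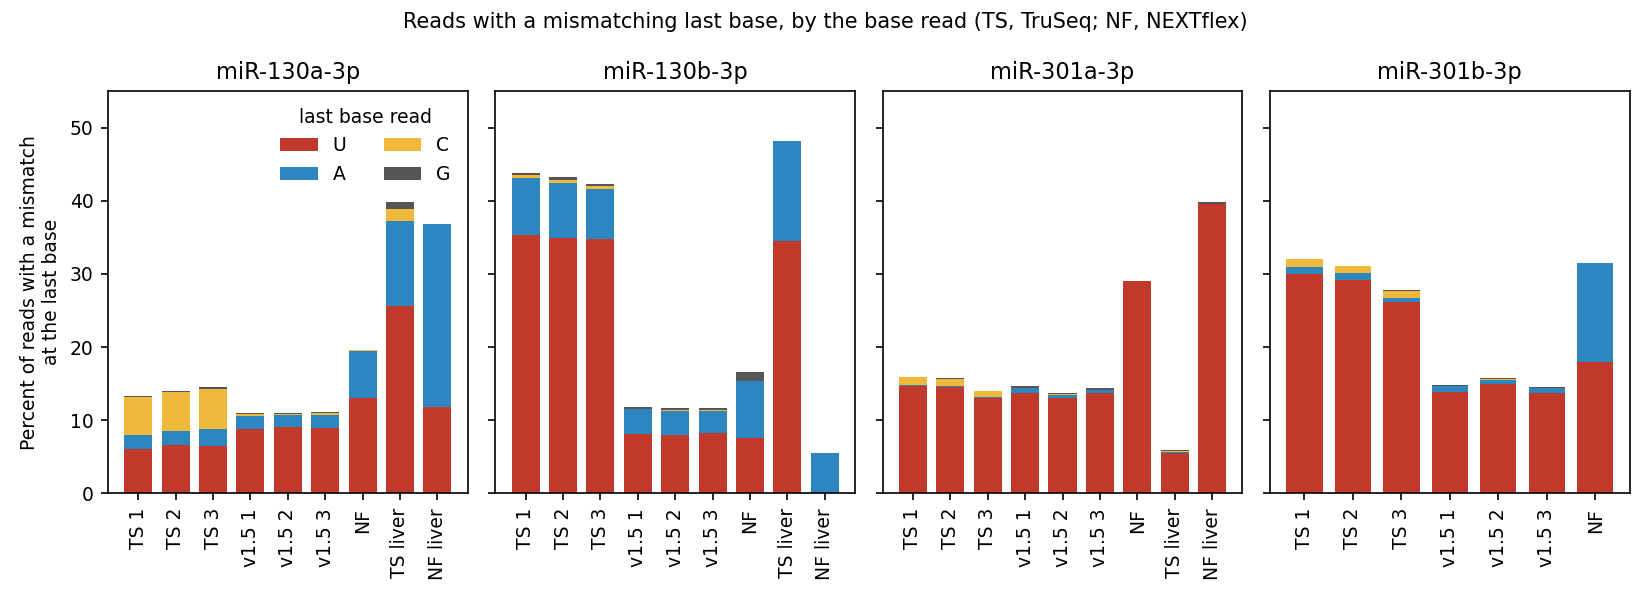
Percent of reads with a mismatching last base (y axis) for each member in each library (x axis), stacked by the base read, with the 2 liver libraries left out for miR-301b-3p (9 reads and 1 read). The U of miR-130b-3p is at 34.7% to 35.3% in the TruSeq MIN6 libraries and at 7.93% to 8.25% in the v1.5 libraries.

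Read lengths shifted in opposite directions for the miR-301 paralogs. The 23-nt form of miR-301a-3p took 60.3%, 60.6% and 65.0% of its reads with TruSeq and 32.0%, 31.5% and 32.2% with v1.5. The 23-nt form of miR-301b-3p took 13.9%, 15.5% and 19% with TruSeq and 48.4%, 47.7% and 51.6% with v1.5. Neither pair of groups overlapped. In miR-301a-3p both shorter and longer reads had larger shares with v1.5, the 22-nt form going from 1.26% ± 0.0723 to 14.2% ± 0.0516. Reads of 24 nt or longer were 36.3% ± 2.68 and 51.0% ± 0.381 of miR-301a-3p, and 81.7% ± 3.06 and 38.1% ± 2.17 of miR-301b-3p (SD, n = 3, TruSeq and v1.5).

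The 22-nt form of miR-130b-3p held 43.2% ± 0.463 with TruSeq and 83.3% ± 0.286 with v1.5, and that of miR-130a-3p 77.9% ± 1.52 and 83.4% ± 0.0742. With TruSeq the 23-nt form of miR-130b-3p was about as frequent as the 22-nt form, at 42.2% ± 0.722. The share of a member's 22-nt (miR-130 members) or 23-nt form (miR-301 members), the tested lengths, was higher with v1.5 in 3 members, and lower in miR-301a-3p. For the commonest length of each entry in each library, 33.8% of the entries were higher and 48.1% lower without overlap. With TruSeq the commonest length of miR-301b-3p was not 23 but 24 nt, at 30.9% ± 1.01, against 7.70% ± 0.201 with v1.5. Shares of the member's own 5′ end, of the tested length and of the mismatching last base were tested in 12 comparisons, of which 11 gave the smallest possible exact permutation p of 0.1 (adjusted p = 0.109). For the share of the own 5′ end, 32.7% of the tested entries were higher and 36.6% lower in v1.5 without overlap.

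In liver the read forms differed from those in MIN6. miR-130a-3p, with 22 nt as its main length in MIN6, was spread in TS-HiSeq-ML over 20 nt (23.9%), 21 nt (19.2%), 22 nt (20.6%) and 23 nt (35.4%). NF-HiSeq-ML gave 18.3%, 21.4%, 17.7% and 28.3% at the same lengths. Both liver libraries thus had the 23-nt form as the commonest, and a mismatching last base in 39.8% and 36.9% of reads, where the median over the entries was 13.8% and 11.1%. The bases differed, with a U in 25.6% and an A in 11.6% of reads in TS-HiSeq-ML, and a U in 11.8% and an A in 25.1% in NF-HiSeq-ML. The 22-nt sequence with 1 added U held 23.6% and 11.5%.

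miR-301a-3p did not behave so. In TS-HiSeq-ML 90.7% of its 1472 reads were 23 nt long and 6.59% were 24 nt or longer, whereas in NF-HiSeq-ML 99.4% of its 362 reads were 24 nt or longer, 59.9% with 24 nt and 39.5% with 26 nt. The 26-nt reads were mostly the 25-nt sequence with 1 added U (39.0% of all), a form at 0.951% in TS-HiSeq-ML. The NEXTflex reads stood on 10 distinct alignments, the 3 commonest of which held 98.1% of them, and the TruSeq reads on 29. In MIN6 the same form held 27.2% with NEXTflex, 12.3% ± 0.263 with v1.5 and 10.8% ± 0.680 with TruSeq. Whether the few distinct alignments of the NEXTflex liver library account for the difference was not tested.

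**Figure D5:**
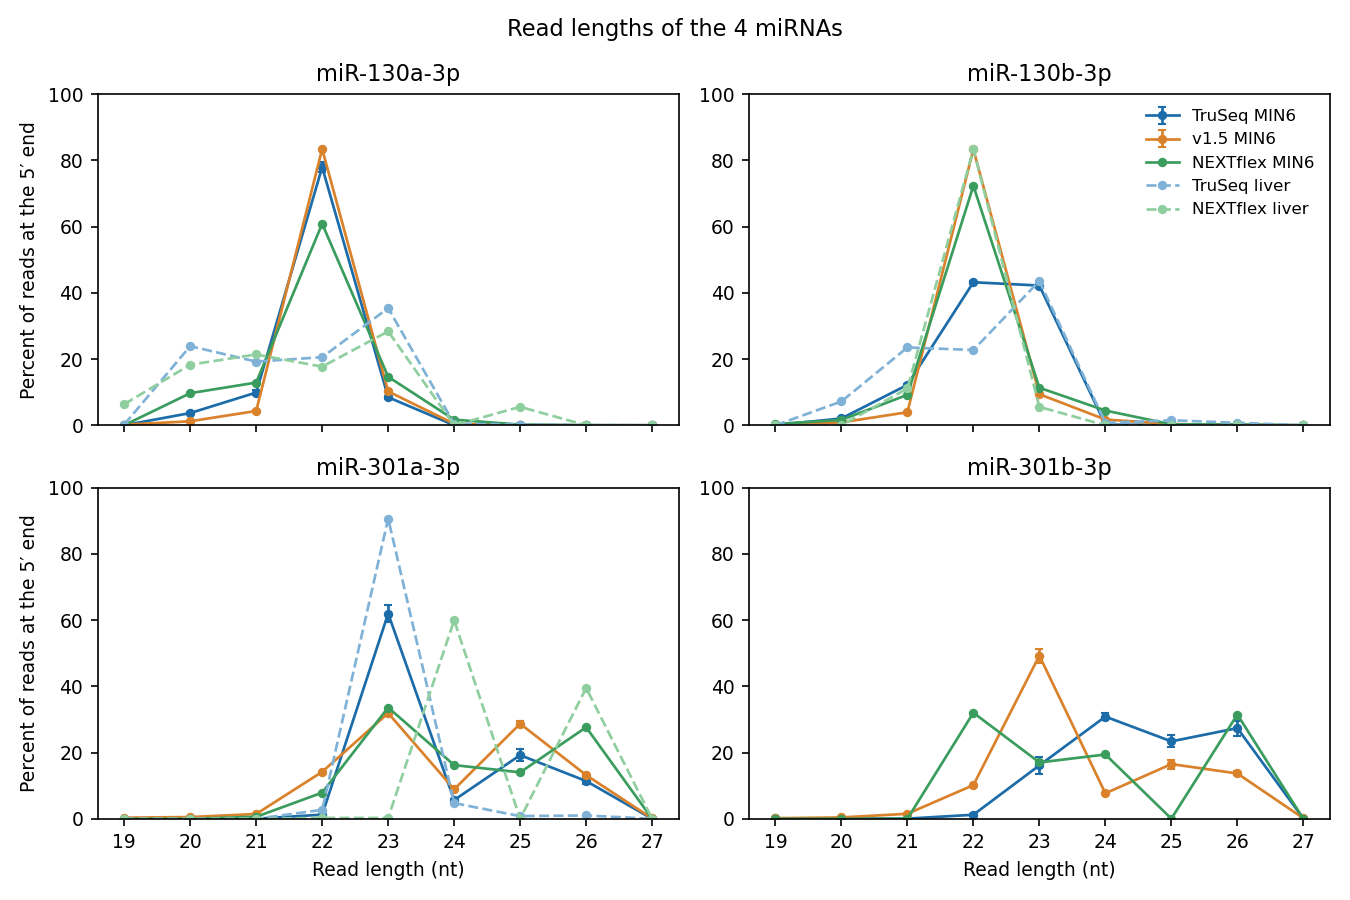
Percent of reads at the member's 5′ end (y axis) by read length in nt (x axis), as means with SD of 3 libraries for TruSeq and v1.5 in MIN6 and as single libraries for the rest, dashed in liver, with liver left out for miR-301b-3p. The 23-nt share of miR-301a-3p is at 62.0% with TruSeq and 31.9% with v1.5, and that of miR-301b-3p at 16.1% and 49.3%.

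Nearly all reads near a member began at its own 5′ end, which fixes the seed. Of the reads starting within 5 nt of it, 99.5% (TruSeq) and 99.0% (v1.5) did so for miR-130a-3p, 96.7% and 98.3% for miR-130b-3p, 99.2% and 98.3% for miR-301a-3p, and 97.4% and 95.8% for miR-301b-3p. The only other starts with at least 1% of these reads in any library were shifted by 1 nt. The start 1 nt downstream held 3.13% ± 0.324 and 1.52% ± 0.0845 for miR-130b-3p and 2.47% ± 0.333 and 3.89% ± 0.159 for miR-301b-3p with TruSeq and v1.5. In NF-HiSeq it held 4.45% of miR-130b-3p and 11.2% of miR-301b-3p, and in NF-HiSeq-ML 10.6% of miR-130a-3p, a value from 265 reads.

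For miR-301a-3p the downstream start held 0.723% ± 0.0583 and 1.37% ± 0.144 with TruSeq and v1.5 and 2.66% in NF-HiSeq. Starts 1 nt upstream reached 1% only in TS-HiSeq-ML, with 1.03% for miR-130a-3p and 1.20% for miR-301a-3p.

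The opposite arms of the hairpins, the 5p strands, were each rarer than the member of the same hairpin in every library. miR-130b-5p was the most abundant, at 238, 228 and 251 RPMM with TruSeq and at 52.8, 45.8 and 45.3 RPMM with v1.5, without overlap, and at 124 RPMM in NF-HiSeq. It made up 13.1% ± 0.624 of the reads of both arms with TruSeq and 5.30% ± 0.495 with v1.5 (SD, n = 3). In TS-HiSeq-ML it had 24 reads, 15.4% of both arms.

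miR-301a-5p was at 38.3 ± 2.09 RPMM with TruSeq, at 15.1 ± 1.61 RPMM with v1.5 and at 9.90 RPMM in NF-HiSeq, and kept a similar share of both arms, 1.23% ± 0.0361 and 1.27% ± 0.184 with TruSeq and v1.5. miR-130a-5p (5.40 ± 0.805 and 4.17 ± 0.393 RPMM) and miR-301b-5p (7.78 ± 0.822 and 2.24 ± 0.693 RPMM) were low with both. All 4 are listed at 0 in NF-HiSeq-ML, where a count of 0 allows up to 0.209 RPMM if every read was listed. The arms miR-130a-5p and miR-301b-5p are also at 0 in NF-HiSeq, where it allows up to 0.117 RPMM, and miR-301b-5p in TS-HiSeq-ML (up to 0.182 RPMM). Since few rare reads are listed with NEXTflex, its limits may be too low.

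The members were compared with miRNAs whose seed overlaps theirs in part. The sequences of an example from each of 2 lists are shown, with the longest run of their first 9 bases that is shared with the family's seed in capitals (6 and 5 bases).
miR-148a-3p: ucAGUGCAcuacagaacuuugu
miR-20a-5p: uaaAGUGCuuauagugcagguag

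All 3 members of the list of miR-148 and miR-152 were higher with v1.5, from miR-148a-3p (log2 fold change 0.75, SE 0.0512) to miR-152-3p (4.70, SE 0.114), with a median of 1.64. Of the list of miR-17, miR-20, miR-93 and miR-106, known from clusters active in dividing cells, 4 were tested and all 4 were higher, from miR-93-5p (2.62, SE 0.0497) to miR-20a-5p (5.38, SE 0.0723), with a median of 3.85. Each of these had an edgeR adjusted p of 9.73e-08 or lower, and over all tested entries 56.5% were higher in v1.5 and passed the test. No miR-19 reached the level for the test. In the miR-130/miR-301 family the median was −1.0, and over all tested entries 0.70. All of these values use mapped reads as library sizes. TMM factors and DESeq2 size factors moved the median of all tested entries to 0.16 and 0.09.

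Across the 9 libraries, the entries with the most similar pattern of log2(RPMM + 1) differed between members. Pearson's r is given as a description, since all points share the libraries and the contrast of MIN6 and liver. Among 347 candidates outside the family, miR-27b-3p (r = 0.974), miR-191-5p (0.970) and its form shifted by 1 nt (0.966) were the nearest to miR-130a-3p. For miR-130b-3p they were a form of miR-337-5p shifted by 3 nt (0.994), miR-342-3p (0.993) and miR-128-2-3p (0.993).

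The nearest to miR-301a-3p were a shifted form of miR-582-3p (0.994), miR-138-1-5p (0.989) and miR-341-3p (0.989), and to miR-301b-3p they were miR-129-2-3p (0.9995), a shifted form of miR-582-5p (0.999) and miR-384-3p (0.998). Within the family r ranged from 0.681, for miR-130a-3p and miR-130b-3p, to 0.968, for miR-130b-3p and miR-301a-3p. The clustered pair stood at 0.933 and the miR-301 paralogs at 0.935.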

How the data were processed

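Small RNA-seq was measured in 7 MIN6 and 2 liver libraries. The authors deposited, for each library, 1 line per distinct alignment with position, edits and an expected count (reads that align equally well at several loci were shared out between these). Their notes name cutadapt, Bowtie and mm9. The adapter of Illumina libraries was trimmed by its sequence, and NEXTflex reads at both ends. The deposited counts were not scaled.

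Here RPMM (reads per 1000000 mapped reads) are the summed counts of a 5′ end over the mapped reads that the study gives for the library. The deposited counts sum to more than these by 0.264% (NF-HiSeq-ML) to 8.41% (TS-HiSeq-ML). Names were joined by value from the study's tables (tolerance 3e-05, absolute under 1 RPMM). All 358 MIN6 entries were placed, 13 of them at more than 1 position of equal values, and the joined values equal those tables by construction. The 352 entries at 100 RPMM or more in a MIN6 library were tested with edgeR 4.0.16 in R 4.3.3 (quasi-likelihood, rounded counts, mapped reads as library sizes, Benjamini-Hochberg threshold 0.05). DESeq2 1.42.0 was an alternative. The fit was tested on simulated data. Permutation tests (SciPy 1.17.1) were exact and two-sided. Comparisons with 1 library have no test, and ratios there had 1 RPMM added. Standard errors of ratios are of the difference of 2 means. Python 3.11.15, numpy 2.4.6, pandas 2.3.3 and matplotlib 3.10.9 were used.

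The members and lists were chosen with earlier results of these data known. Named besides the members were their opposite arms, 5′ ends within 5 nt with at least 1% of the reads, the 3 entries of nearest pattern per member, the extremes of the overlapping-seed lists and both tissue markers. Positions are of the RefSeq and GENCODE annotation of GRCm38 and were not converted. The TruSeq HiSeq libraries of MIN6 were not analysed here.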

Additional observations from a re-analysis of the deposited data

Results flagged for a closer look

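The following values went in opposite directions in 2 groups under the same contrast, among members with at least 10 reads in every library, and none of these differences was tested. The contrasts share libraries, and the NEXTflex and liver groups hold 1 library each.

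From TruSeq to NEXTflex, the level of miR-130b-3p was higher in MIN6 (1579 RPMM on average and 1976 RPMM) and lower in liver (8.01 and 1.25 RPMM). The log2 ratio of miR-130b-3p over miR-301a-3p likewise went from −0.96 to 1.01 in MIN6 and from −3.48 to −4.33 in liver. The share of a mismatching last base in miR-130a-3p went from 14.0% to 19.7% in MIN6 and from 39.8% to 36.9% in liver. The share of reads at the member's own 5′ end went from 99.5% to 100% in MIN6 and from 98.3% to 89.4% in liver for miR-130a-3p. It went from 96.7% to 94.7% and from 97.8% (135 reads) to 100% (18 reads) for miR-130b-3p, and from 99.2% to 96.7% and from 98.5% to 99.7% for miR-301a-3p, which also makes MIN6 higher than liver with TruSeq and lower with NEXTflex.

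From liver to MIN6, the 22-nt share of miR-130b-3p was higher with TruSeq (22.7% and 43.2%) and lower with NEXTflex (83.3% of 18 reads and 72.3%). The share of a mismatching last base in miR-130b-3p was lower with TruSeq (48.1% and 43.1%) and higher with NEXTflex (5.56% and 16.6%). For miR-301a-3p, the 23-nt share was lower in MIN6 with TruSeq (90.7% and 62.0%) and higher with NEXTflex (0.276% and 33.6%). Its share of a mismatching last base was higher in MIN6 with TruSeq (5.93% and 15.2%) and lower with NEXTflex (39.8% and 29.0%). Both NEXTflex libraries list few rare reads, so that these shares of minor forms and starts are not comparable between the protocols.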

How the results depend on the processing

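Over the alternatives run, miR-130a-3p, miR-130b-3p and miR-301a-3p kept a negative log2 fold change with an adjusted p under 0.05 for v1.5 against TruSeq. miR-301b-3p turned to −0.060 with TMM factors (adjusted p = 0.366), −0.13 with DESeq2 size factors (0.0470) and −0.13 in the DESeq2 test (0.0538), all of which centre the entries, and lay between 0.35 and 0.79 in its other alternatives. The calls were 326 of 352 entries, 1595 of 1925 when every 5′ end from 50 RPMM was tested, and 147 of 155 from 500 RPMM, the sizes of the tested sets. Higher and lower calls were split 199 to 127 in the report, 171 to 161 with TMM factors and 165 to 166 with DESeq2 size factors. Without 1 library at a time, the log2 fold changes ranged from −1.18 to −1.07 for miR-130a-3p, from −0.90 to −0.87 for miR-130b-3p, from −1.42 to −1.33 for miR-301a-3p and from 0.43 to 0.53 for miR-301b-3p. With the replicate number as a block, these were −1.12, −0.88, −1.38 and 0.49, with 330 calls. Libraries of the same number had deviations correlated at 0.0947, 0.187 and 0.191, each the highest of its library, a hint from the data only, and were not taken as pairs. All 6 shifts between paralogs and all 12 differences of read forms kept their direction without any 1 library.

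For the comparisons with 1 library, the following log2 ratios moved by more than the spread of the replicates or the counting interval, none changed sign, and the cause was not tested. Scaled to the reads of the placed MIN6 entries, NEXTflex against TruSeq in MIN6 gave −3.32, 0.060, −1.90 and −2.82 for miR-130a-3p, miR-130b-3p, miR-301a-3p and miR-301b-3p. NEXTflex against v1.5 gave −2.06, 1.08, −0.38 and −3.18 in this order. The same scaling gave −3.72 for miR-130a-3p and −2.68 for miR-301a-3p between the liver libraries. For MIN6 against liver it gave 1.00, 6.85 and 4.40 for miR-130a-3p, miR-130b-3p and miR-301a-3p with TruSeq, and 1.40, 9.83 and 6.29 for miR-130a-3p, miR-130b-3p and miR-301b-3p with NEXTflex.

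From alignments without an edit, NEXTflex against TruSeq in MIN6 gave 0.86 for miR-130b-3p and −1.87 for miR-301a-3p, and NEXTflex against v1.5 gave −2.10, 1.11, −0.52 and −3.32 for the 4 members. In liver it gave −1.16 for miR-130b-3p and −2.39 for miR-301a-3p. MIN6 against liver became 2.19, 4.91 and 7.59 for miR-130a-3p, miR-301a-3p and miR-301b-3p with TruSeq, and 1.88, 9.49 and 5.53 for miR-130a-3p, miR-130b-3p and miR-301b-3p with NEXTflex. Summing the 5′ ends within 5 nt gave 0.35 for miR-130b-3p and −2.43 for miR-301b-3p against TruSeq, 1.26 and −2.94 against v1.5, and −2.69 for miR-130a-3p in liver. For MIN6 against liver with NEXTflex it gave 1.31, 9.86 and 6.26 for miR-130a-3p, miR-130b-3p and miR-301b-3p.

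Adding 5 RPMM gave −2.98 for miR-301b-3p against v1.5, and −1.06 and −1.64 for miR-130b-3p and miR-301a-3p in liver. For MIN6 against liver it gave 6.93 and 6.28 for miR-130b-3p and miR-301b-3p with TruSeq, and 8.31, 5.04 and 3.92 for miR-130b-3p, miR-301a-3p and miR-301b-3p with NEXTflex. Adding 0.1 RPMM gave 7.61 and 9.37 for miR-130b-3p and miR-301b-3p with TruSeq. Depth limits miR-130b-3p and miR-301b-3p in liver, where they had at most 132 and 9 reads.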
